A study of Mus musculus with 864 samples.

Results

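Glycolysis runs on isoenzymes, and 7 genes were followed here: Ldha and Ldhb (the muscle-type and heart-type lactate dehydrogenase subunits), Aldoa and Aldoc (aldolases A and C), Eno1 and Eno2 (alpha enolase and the neuron-specific gamma enolase), and Gapdh (glyceraldehyde-3-phosphate dehydrogenase). They were chosen by name, as 7 of 23281 genes in the deposited table, and each had 1 row. Cells came from 6 lumbar dorsal root ganglia of C57/Bl6 mice with no treatment named aged 6 to 8 weeks, and single cells were picked by hand into wells under visual control. Session A gave male and female cells picked at room temperature, session B male cells at room temperature, and session C male and female cells picked on a cooled stage. Of 799 wells that the labels describe as single cells, 694 (86.9%) had 1000 or more genes above 0 and were kept. The 5 combinations of session and sex are the preparations used as replicates. The labels name no animal, so p-values measure only the spread between these preparations.

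Lactate dehydrogenase is a tetramer that interconverts pyruvate and lactate. Its A subunit is known for making lactate in fast-glycolysing tissue and its B subunit for using lactate in oxidative tissue. Aldolase splits fructose bisphosphate into triose phosphates, glyceraldehyde-3-phosphate dehydrogenase oxidises one of these, and enolase makes phosphoenolpyruvate further down. In the nervous system the C aldolase and the gamma enolase are the textbook brain forms, and gamma enolase has long served as a marker of neurons.

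Of the lactate dehydrogenase genes, Ldhb differed between neuron classes in the main comparison below, and Ldha did not pass there. The 250 bases before the first listed RefSeq start of each are shown, on the gene's strand (GRCm38.p6, a different build from the mm9 of the deposited table). A link between these sequences and the class levels was not tested. The Ldha stretch lies at chr7:46845554-46845803 on the plus strand and the Ldhb stretch at chr6:142507958-142508207 on the minus strand, each ending just before that start. Capitals mark ACGTG or GCGTG on either strand (read as CACGT or CACGC on the other), the core that hypoxia-inducible factors are known to bind.
Ldha: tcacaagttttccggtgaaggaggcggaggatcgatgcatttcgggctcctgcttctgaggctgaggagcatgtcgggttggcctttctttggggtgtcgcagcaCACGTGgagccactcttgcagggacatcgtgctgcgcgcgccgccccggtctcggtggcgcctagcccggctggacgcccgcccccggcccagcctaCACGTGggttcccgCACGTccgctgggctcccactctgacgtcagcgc
Ldhb: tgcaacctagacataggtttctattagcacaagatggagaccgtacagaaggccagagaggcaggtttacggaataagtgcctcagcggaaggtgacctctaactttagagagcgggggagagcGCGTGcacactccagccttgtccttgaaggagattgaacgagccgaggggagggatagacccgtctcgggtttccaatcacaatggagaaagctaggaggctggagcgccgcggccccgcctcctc
Counted with overlaps, the Ldha stretch held 5 matches and the Ldhb stretch 1. Of 27025 genes with a listed start, 38.6% held at least 1 match in the same window and 2.66% held 4 or more. Ldha has another start in the table, whose window held 1 match. At their first listed starts the Eno2 and Aldoa windows held 0, the Aldoc and Eno1 windows 1 and the Gapdh window 2. The windows of the other listed starts held 1 each for Aldoa and Aldoc and 2 each for Eno1. A match is a run of letters and not a measured binding site, and the table of gene totals does not show which start was used.

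The labels give no cell type, so wells were clustered on genes that exclude the members and named by markers. Of the kept wells 20.9% were NF-like (neurofilament-rich, the class of touch and position sense), 23.6% NP-like (nonpeptidergic nociceptors), 84 wells or 12.1% PEP-like (peptidergic nociceptors), 253 wells or 36.5% TH-like (tyrosine hydroxylase, low-threshold C fibres) and 48 wells or 6.92% non-neuronal. NF-like wells had 9 of 10 neurofilament-class markers at 20 RPM (reads per 1000000 reads) or more, NP-like wells 11 of 13 of theirs, PEP-like wells 7 of 7 and TH-like wells 6 of 6. The same markers named the clusters, so these counts do not test the names. Each list's other classes had 4 to 7 of the 10, 3 to 4 of the 13, 2 to 4 of the 7 and 2 to 4 of the 6. One PEP-like cluster of 43 wells, about as many as the 41 of the other, had the neurofilament gene Nefh, S100b and Htr3a among its leading genes beside Calca and Scg2. Of the class markers, 1 peptidergic (Calca) and 1 neurofilament-class (Nefh) were among those leading genes, and Nefh stood at 1460 RPM there against 279 in the other PEP-like cluster. PEP-like values are therefore those of a mixed class. Of the NP-like clusters, 2 of 3 had the peptide gene Calca among theirs. PEP-like preparations also reached higher summed markers of other cells than the other neuron classes did: up to 4077 RPM for satellite glia (others up to 1181), 6397 for Schwann cells (others up to 1988), 2161 for mural cells (others up to 284) and 1031 for fibroblasts (others up to 262.3). The part of these in the PEP-like values was not tested. Non-neuronal wells had 7 of 7 fibroblast, 9 of 9 satellite glia and 6 of 8 immune markers at that level, so they are a mixture. Their summed neuron markers stood at 1771 to 9764 RPM, against 20346 to 38224 RPM in the neuron classes, and the part of this neuronal RNA in their values was not tested. None came from session A, and session A females gave only 1 PEP-like well, so those class means were left out. Median reads per well ran from 15421 in session A males to 2573226 in session C females.

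Ldhb, the heart-type subunit, set the NF-like neurons apart. Its mean level there was 1032 RPM in session A males, 1239 in session A females, 971 in session B males, 1128 in session C males and 991 in session C females. In NP-like neurons it was 67.8, 83.2, 75.4, 121.2 and 36.6 RPM, in the same order. In TH-like neurons it was 85.6, 55.8, 100.1, 120.8 and 78.6 RPM. Every NF-like preparation was thus above every preparation of the other classes, and the NP-like and TH-like ranges overlapped. PEP-like neurons lay mostly between, at 117.95 RPM in session A males, 236.005 in session B males, 402 in session C males and 433 in session C females. A single well at 5020 RPM carried much of the session C male value, which was 158.5 RPM without it.

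Each class was set against the unweighted mean of the other 3 on log2(mean RPM + 5), with limma across 10419 genes. The class contrasts are therefore not independent, since the NF-like level is part of the reference of every other neuron class. As means of preparations Ldhb stood at 1072 RPM in NF-like, 76.8 in NP-like and 88.2 in TH-like neurons. NP-like and TH-like neurons were not tested against each other. Ldhb was higher in NF-like neurons by 3.12 ± 0.32 (log2 difference ± SE, adjusted p = 4.53e-07), an 8.72-fold difference on that scale, and higher in 5 of 5 preparations. It was lower in NP-like neurons by a log2 difference of -1.94 ± 0.32 (limma, adjusted p = 0.000279) and in TH-like neurons by -1.63 ± 0.32 (limma, adjusted p = 0.00227). In PEP-like neurons the difference of 0.45 ± 0.35 did not pass (limma, adjusted p = 0.575). Without the PEP-like cluster that had Nefh among its leading genes, the NP-like difference was -1.48 (limma, adjusted p = 0.0644) and the TH-like one -1.17 (limma, adjusted p = 0.173), so neither passed. Without that cluster the PEP-like difference turned to -0.94 (limma, adjusted p = 0.318), and over plate-by-sex libraries it was -0.20 (limma, adjusted p = 0.809), so its direction was not settled. With sessions B and C only, the TH-like difference was -1.54 (limma, adjusted p = 0.151), and over plate-by-sex libraries it was -0.95 (limma, adjusted p = 0.0811).

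Ldha, the muscle-type subunit, was present in all neuron classes and was highest in session A. NF-like neurons had 1363 RPM in session A males, 785 in session A females, 367 in session B males, 404 in session C males and 711 in session C females. TH-like neurons had 2170, 1266, 726, 986 and 888 RPM in the same order. NP-like neurons had 1871, 1867, 548, 706 and 840 RPM. In each of these 3 classes both session A preparations were above all others, and the classes' ranges overlapped. PEP-like neurons had 1595 RPM in session A males, 772 in session B males, 926 in session C males and 553 in session C females, again highest in session A. The NF-like difference from the other classes was -0.67 ± 0.24, which did not pass (limma, adjusted p = 0.105). It passed when only neuron classes entered the fit (limma, adjusted p = 0.00216), a setting chosen after the spread of the non-neuronal values had been seen. The differences of the other 3 classes were 0.21 (NP-like), 0.09 (PEP-like) and 0.38 (TH-like), and none passed.

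The transcript balance of the subunits set NF-like neurons apart from NP-like and TH-like neurons in every preparation. The log2 ratio of Ldhb to Ldha in NF-like neurons was -0.40 in session A males, 0.66 in session A females, 1.39 in session B males, 1.47 in session C males and 0.48 in session C females. In TH-like neurons it was -4.59, -4.39, -2.80, -2.98 and -3.42, and in NP-like neurons -4.69, -4.41, -2.78, -2.49 and -4.34. PEP-like neurons had -3.70 in session A males, -1.69 in session B males, -1.20 in session C males and -0.35 in session C females, and the last of these lay above the NF-like value of session A males. As linear ratios these correspond to 0.758 to 2.77 in NF-like, 0.0416 to 0.144 in TH-like and 0.0388 to 0.178 in NP-like preparations, with no overlap between the first class and the other two. The PEP-like range, 0.0768 to 0.784, overlapped all 3. Within preparations the NF-like ratio exceeded the mean of the other classes by 3.93 ± 0.69 log2 (SD, n = 5, higher in 5 of 5; exact two-sided sign-flip permutation p = 0.062, adjusted over 15 ratio comparisons 0.134). The NP-like ratio was lower by a log2 difference of -2.18 ± 0.70 and the TH-like ratio by -2.04 ± 0.35, each in 5 of 5 preparations with the same exact permutation p. Both were set against a mean that holds the NF-like ratio, so they are not independent of the NF-like difference. The PEP-like difference was 0.36 ± 1.17 (SD, n = 4, higher in 2 of 4; exact permutation p = 0.875). With 5 preparations 0.062 is the smallest p this test can give, so no ratio can pass over preparations. Over plate-by-sex libraries, which share preparations, these 3 comparisons had an adjusted exact permutation p of 0.00977.

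**Figure D1:**
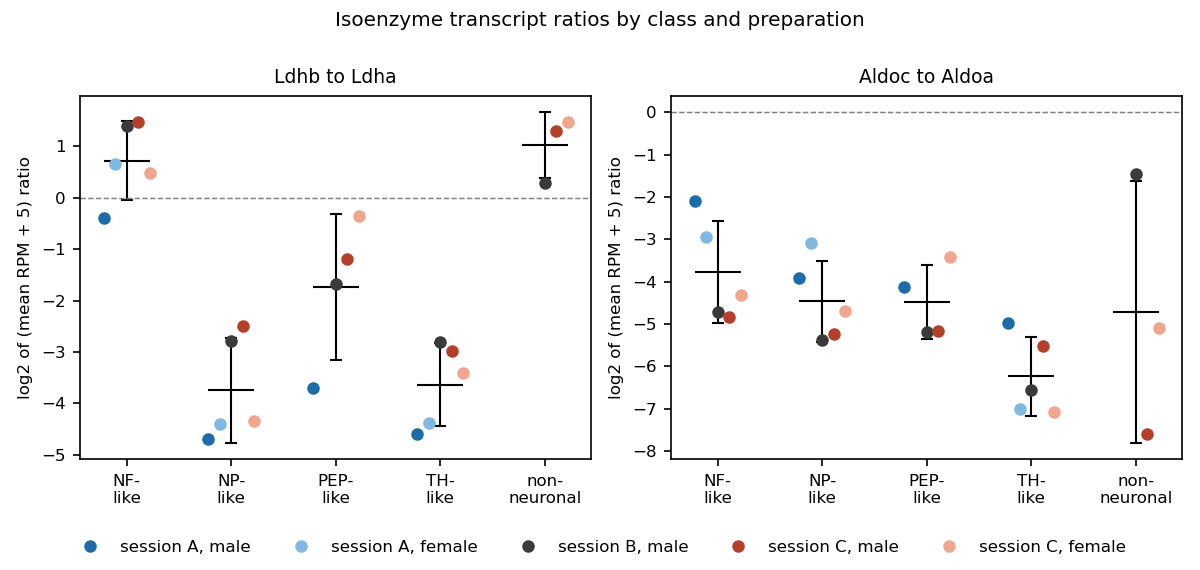
Log2 ratio of Ldhb to Ldha (left) and of Aldoc to Aldoa (right) on the vertical axis, by class on the horizontal axis; points are preparations, bars the mean ± SD over preparations, and the dashed line an equal level. NF-like Ldhb to Ldha points lie between -0.40 and 1.47, above all NP-like and TH-like points, while every Aldoc to Aldoa point lies under 0.

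The same held in single wells. Ldhb exceeded Ldha in 98 NF-like wells (67.6% of the class), in 5 NP-like wells (3.05%) and in 2 of 253 TH-like wells (0.791%). After wells were thinned to 3000 reads the shares were 53.9%, 1.84% and 3.59%. By preparation the NF-like share was 43.6% of 55 wells in session A males, 72.2% of 18 in session A females, 88.1% of 42 in session B males, 82.6% of 23 in session C males and 71.4% of 7 in session C females. Session A males, with the highest Ldha, had the lowest share. PEP-like wells stood at 11 of 84 (13.1%). Wells of 1 preparation are not replicates, so these shares carry no test.

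**Figure D2:**
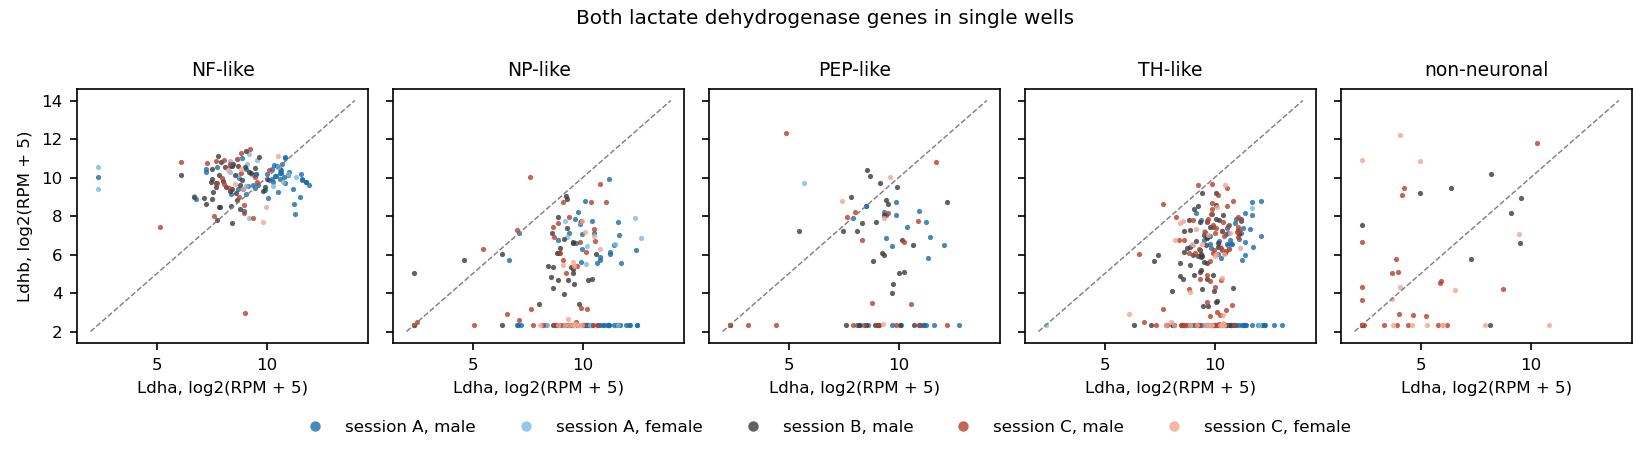
Ldhb against Ldha in each kept well, both as log2(RPM + 5), with a panel for each class, colour for the preparation and the dashed line at equal values. NF-like wells gather at high Ldhb on both sides of the line, and most NP-like and TH-like wells lie under it, many with Ldhb at 0.

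Aldoa was among the most abundant members in every neuron class. NF-like neurons had 3779 RPM in session A males, 3670 in session A females, 4866 in session B males, 3496 in session C males and 3272 in session C females. NP-like neurons had 1911 to 3314 RPM, PEP-like 1160 to 3072 and TH-like 2885 to 4284, so neighbouring classes overlapped. The NF-like difference was 0.57 ± 0.20 (limma, adjusted p = 0.0901) and the PEP-like one -0.69 ± 0.22 (limma, adjusted p = 0.103), and neither passed. With neuron classes only in the fit both passed, at limma adjusted p of 0.00105 and 0.00144. Leaving out session C females also brought the NF-like difference past the threshold, at 0.56 (limma, adjusted p = 0.0125).

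Aldoc was scarcer and more uneven. In NF-like neurons it stood at 885 RPM in session A males, 472 in session A females, 180.9 in session B males, 117.2 in session C males and 160.1 in session C females. NP-like neurons had 151.1, 243.3, 75.1, 46.1 and 113.8 RPM in that order, and TH-like neurons 105.8, 18.006, 40.7, 57.7 and 20.0. The session A values were the highest in NF-like and NP-like neurons, and the NF-like and NP-like ranges overlapped. NF-like neurons were higher by 1.81 ± 0.57, a 3.5-fold difference on the log2(mean RPM + 5) scale that did not pass (limma, adjusted p = 0.057). TH-like neurons differed by -1.68 ± 0.57 (limma, adjusted p = 0.117). With neuron classes only in the fit the limma adjusted p was 0.000331 and 0.00118. Without session B males both differences passed too, at 1.90 (limma, adjusted p = 0.0191) and -1.79 (limma, adjusted p = 0.0404). Leaving out session B males was a planned setting. The 2 settings added after seeing the data were neuron classes only and without the PEP-like cluster that has Nefh. Without that cluster the NF-like difference was 2.30 (limma, adjusted p = 0.0255). Over the planned and added settings the NF-like difference passed in 5 of 19 and the TH-like one in 2 of 19.

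The aldolase ratio kept A above C in nearly all wells. Aldoc exceeded Aldoa in 4 NF-like wells (2.76%) and 2 PEP-like wells (2.38%). It did so in 0 NP-like and 0 TH-like wells, which allows shares of up to 1.83% and 1.19% (3 wells of each class, for counting error in these pooled wells only). After thinning to 3000 reads it did so in 1 TH-like well (0.398%). As a ratio of means, Aldoc to Aldoa was 0.0349 to 0.235 in NF-like and 0.00739 to 0.0315 in TH-like preparations, with no overlap. Within preparations the NF-like log2 ratio was higher than the mean of the other classes by 1.31 ± 0.81 (SD, n = 5, higher in 5 of 5; exact permutation p = 0.062). The TH-like ratio was lower by a log2 difference of -2.09 ± 1.39 (SD, n = 5, lower in 5 of 5; exact permutation p = 0.062). NP-like and PEP-like differences, 0.41 ± 0.85 and 0.47 ± 1.04, were smaller than their spread.

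Eno2, known as neuron-specific enolase, was lowest in the NP-like neurons, while the ranges of neighbouring classes among the other neurons overlapped. NF-like neurons had 845 RPM in session A males, 618 in session A females, 507 in session B males, 759 in session C males and 693 in session C females. TH-like neurons had 496, 408, 287, 351 and 548 RPM. NP-like neurons had 101.5, 78.6, 73.5, 66.002 and 30.4 RPM, below every preparation of the other neuron classes. PEP-like neurons had 706 RPM in session A males, 348 in session B males, 296 in session C males and 212.6 in session C females. The NF-like difference was 1.63 ± 0.32 (limma, adjusted p = 0.00141) and the NP-like one -2.72 ± 0.32 (limma, adjusted p = 4.72e-06), or 6.59-fold lower. PEP-like (0.42 ± 0.35) and TH-like neurons (0.67 ± 0.32) did not pass, at limma adjusted p of 0.611 and 0.351. The TH-like difference passed with neuron classes only in the fit (limma, adjusted p = 0.0423), and with sessions B and C only the NF-like difference of 1.81 did not (limma, adjusted p = 0.0859).

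NP-like neurons and non-neuronal wells overlapped in Eno2. The non-neuronal means were 149.7 RPM in session B males, 23.2 in session C males and 52.3 in session C females. Eno2 was above 0 in 58.5% of NP-like wells, with a median of 2.31 RPM, against 99.3% and 612 RPM in NF-like wells. After thinning to 3000 reads the shares were 19.6% and 80.9%. All 6 markers of the neuron list were at 20 RPM or more in NP-like wells, whose summed level was 27340 to 38224 RPM, against 20346 to 30277 RPM in the other neuron classes.

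Eno1, the enolase that most cells use, was listed at or near 0 throughout. Its mean was 0 to 5.31 RPM over all class preparations, and it was above 0 in 28 of 694 kept wells. PEP-like and non-neuronal wells were all listed at 0. With a mean under 5 RPM over the pseudobulks it was not tested. Of 25-base words in its reference transcript, 65.4% also occur in transcripts of other genes (GENCODE M21), against 92.6% for Gapdh, 47.2% for Ldhb, 44.3% for Aldoa, 40.5% for Ldha, 2.6% for Eno2 and 0.1% for Aldoc. These shares cover whole transcripts, while the protocol reads transcript starts, and the share over the positions read was not measured. How reads shared between copies were counted is not given in the sources used here, and the cause of the low Eno1 row was not tested. The log2 ratio of Eno2 to Eno1, 3.55 ± 0.56 in NP-like and 6.83 ± 0.30 in NF-like neurons (SD, n = 5), therefore follows Eno2 over the pseudocount and is not read as an isoenzyme balance.

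Gapdh, a customary reference gene, differed little between neuron classes, whose means ran from 3244 to 4164 RPM. NF-like neurons had 3382 RPM in session A males, 5084 in session A females, 4391 in session B males, 3481 in session C males and 4483 in session C females. The other neuron classes ranged from 2353 to 4759 RPM over their preparations, and all class ranges overlapped. No neuron contrast passed, with differences from -0.17 to 0.27. For the NF-like difference, ±2 standard errors reached from -0.03 to 0.57.

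**Figure D3:**
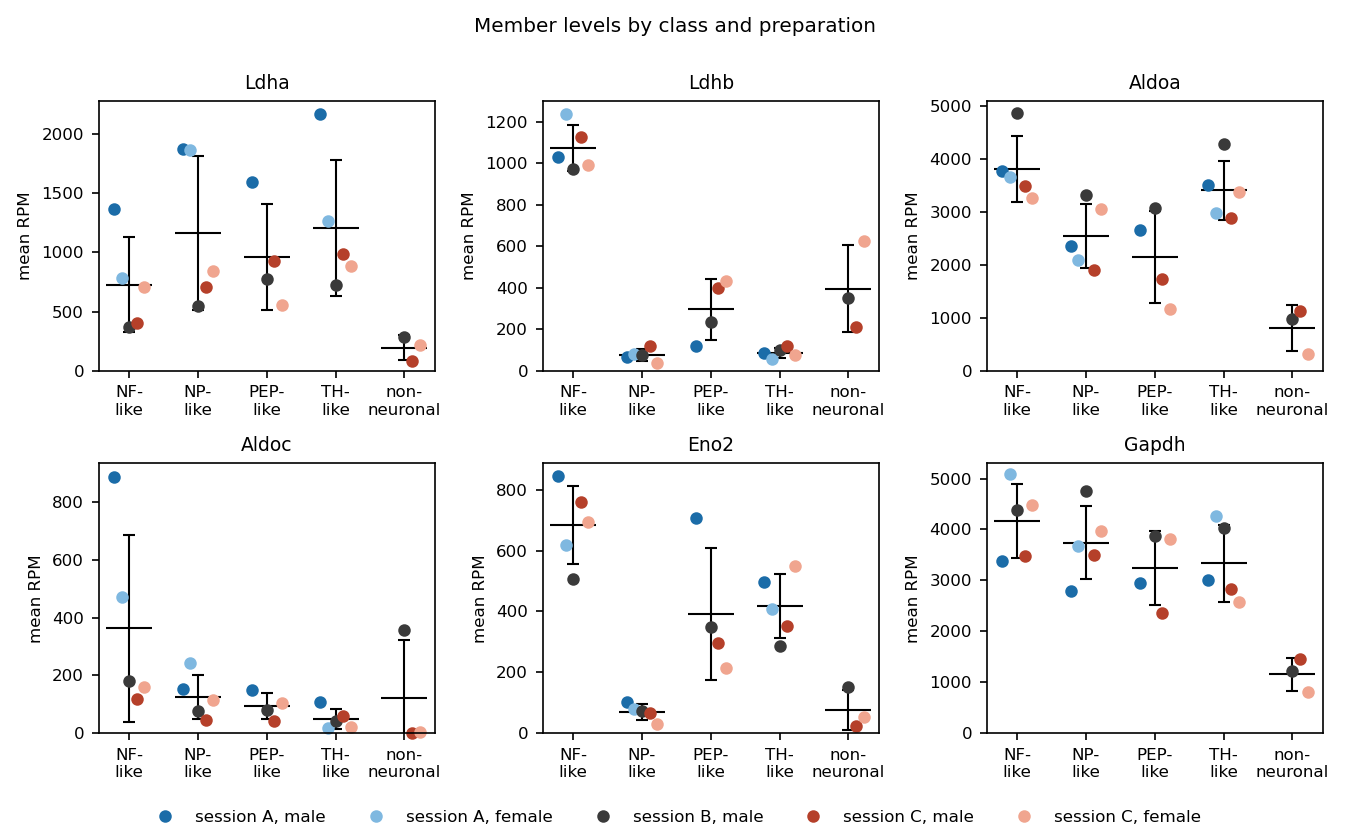
Mean RPM of 6 members on the vertical axis in each class, with points for preparations and bars for the mean ± SD over preparations; Eno1 is left out because it was listed near 0. NF-like Ldhb points lie between 971 and 1239 RPM, apart from all others, and NP-like Eno2 points lie between 30.4 and 101.5 RPM.

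In counts of calls, 2 of 6 tested members passed in NF-like neurons (both higher), where 6.78% of all 10419 genes tested were called. In NP-like neurons 2 of 6 passed (both lower), against 4.97% of all genes, and in TH-like neurons 1 of 6 (lower), against 4.09%. These counts are not independent, because each class is part of the others' reference. None of 6 passed in PEP-like neurons, where 1.71% of genes were called; 1 member (Aldoa) had an unadjusted limma p under 0.05, and edgeR called 0. With neuron classes only in the fit, 5 of 6 members passed in NF-like neurons, where 13.5% of genes did. Median genes above 0 per well were 5350 in NF-like, 3487 in NP-like, 2672 in PEP-like and 3394 in TH-like wells, and the part of this difference in the results was not tested.

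Within the NF-like wells the members differed between clusters. The cluster led by the proprioceptor gene Pvalb (25 wells) had Aldoc at 1785 RPM in session A males and 386 in session B males, and Aldoc was among its leading genes. A cluster of 68 wells with S100b and Pcp4 in the lead had the most Ldhb, at 1240 RPM in session A males, 1257 in session A females, 1324 in session B males, 1678 in session C males and 1095 in session C females. A cluster led by Thy1 (52 wells) had Ldhb at 823, 508 and 833 RPM and Aldoc at 232.4, 73.4 and 95.4 RPM in session A males, session B males and session C males. In the preparations that hold all 3 clusters, session A males and session B males, Aldoc was highest in the Pvalb cluster and Ldhb in the S100b cluster. The 3 NP-like clusters were alike in low Eno2, at 96.1, 68.03 and 20.2 RPM as means of preparations. These are descriptions, since some of the cells' genes made the clusters.

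**Figure D4:**
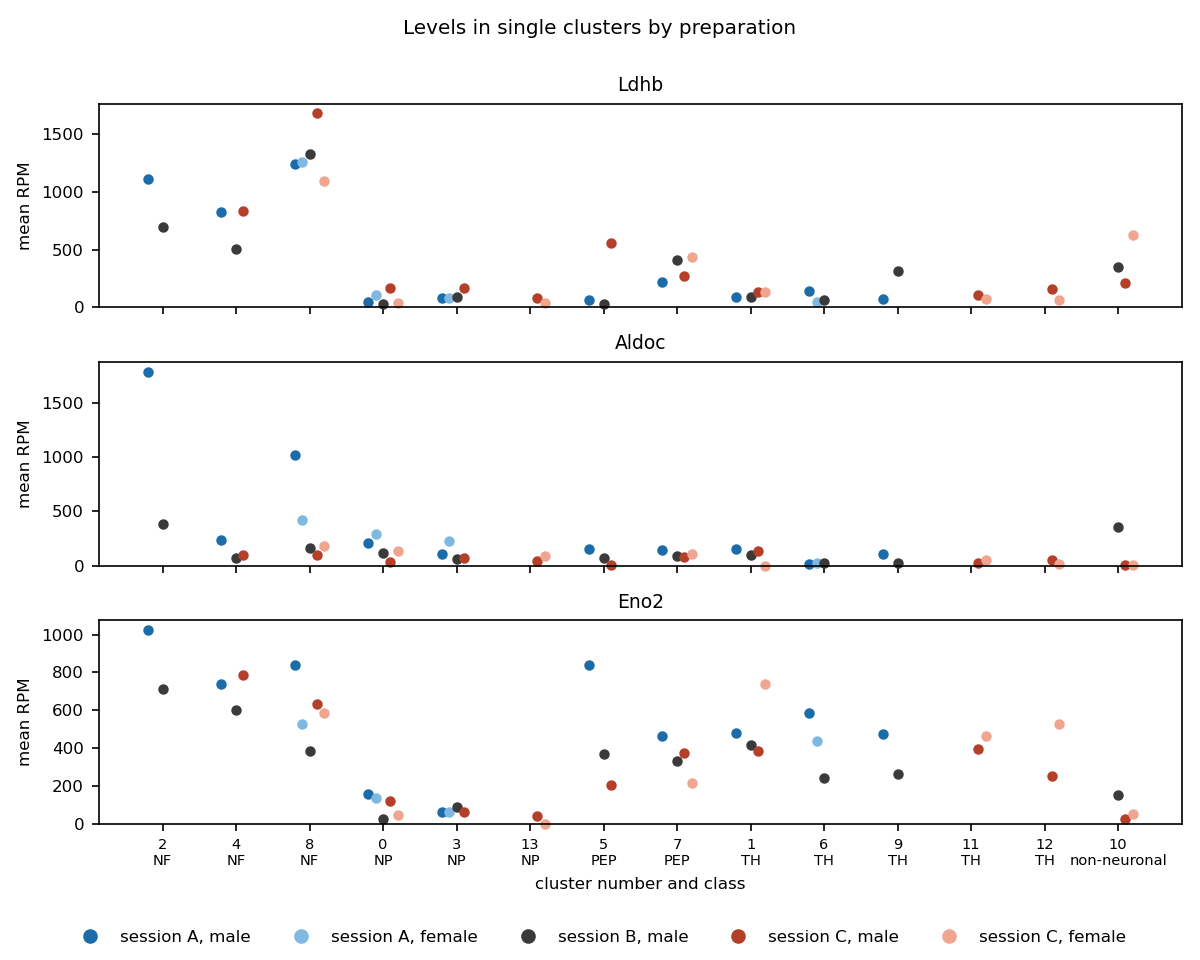
Mean RPM of Ldhb, Aldoc and Eno2 on the vertical axis for each cluster of wells on the horizontal axis, labelled with its number and class; points are preparations with 3 or more wells. The highest Ldhb points belong to NF-like cluster 8, the highest Aldoc points to NF-like cluster 2 at 1785 RPM.

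Non-neuronal wells carried less of most members. Mean Aldoa was 977 RPM in session B males, 1131 in session C males and 324 in session C females, and Gapdh was 1216, 1446 and 806 RPM in the same order. Ldha was at 286, 84.4 and 221.2 RPM. Each of these was below every neuron preparation. Ldhb stood at 351, 212.96 and 624 RPM, above all NP-like and TH-like preparations and below all NF-like ones. Against the mean of the neuron classes, Aldoa differed by -1.99 ± 0.24, Gapdh by -1.67 ± 0.19, Ldha by -1.91 ± 0.30 and Eno2 by -2.01 ± 0.39. All 4 passed, at limma adjusted p of 1.11e-06, 3.37e-07, 2.1e-05 and 0.000249, where 49.3% of genes were called and the median gene fell by 1.04. Ldhb did not pass, at 0.67 ± 0.39 (limma, adjusted p = 0.151), and neither did Aldoc, at -1.53 ± 0.70 (limma, adjusted p = 0.0723).

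Those 4 calls depended on the scaling. With median-ratio scaling, which moved the median gene to -0.20 and the calls over all genes from 955 higher and 4181 lower to 1838 and 1669, the differences were -0.20 for Aldoa, 0.13 for Gapdh, -0.14 for Ldha and -0.32 for Eno2. None of them passed then, and Ldhb did, at 2.45 (limma, adjusted p = 0.000673). The non-neuronal means also rest on few wells: 1 well gave 71.1% of their Aldoc, 31.8% of their Aldoa and 27.6% of their Ldhb. Median levels over the 48 wells were 127.2 RPM for Aldoa, 380 for Gapdh, 20.2 for Ldha and 13.1 for Ldhb. Ldhb exceeded Ldha in 17 of these wells and Ldha exceeded Ldhb in 26, although the ratio of means favoured Ldhb in 3 of 3 preparations, at 1.22 to 2.78. The log2 ratio was 2.58 ± 0.81 above the neuron mean (SD, n = 3), where 0.25 is the smallest exact permutation p. Without session C males the Ldhb difference was 1.21 (limma, adjusted p = 0.0371), and without session B males the Aldoc difference was -3.32 (limma, adjusted p = 0.000372).

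Cooled picking was used only in session C, so temperature cannot be told apart from the session or its depth. On the mean log2 level of the 3 neuron classes found in every preparation (PEP-like left out), Ldha stood at 10.79 in session A males, 10.27 in session A females, 9.06 in session B males, 9.37 in session C males and 9.67 in session C females. Aldoc stood at 7.96, 7.13, 6.46, 6.19 and 6.30 in the same order. Both were highest in session A, the shallowest, and session B males lay with session C. No member passed in session C against the others, where 0.211% of genes were called. The differences were -0.58 ± 0.47 for Ldha (limma, adjusted p = 0.555) and -0.93 ± 0.44 for Aldoc (limma, adjusted p = 0.317), and -0.21 to 0.11 for the other 4; no member had an unadjusted limma p under 0.05, and edgeR called 0. Without session B males, Ldha (-1.01, limma adjusted p = 0.0108) and Aldoc (-1.29, limma adjusted p = 0.0168) passed. That setting compares session C with session A alone. In it 290 genes were higher and 348 lower of 10294 tested, against 5 and 17 of 10419 with session B males included.

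The rest of the pathway gave few calls between neuron classes. Of 14 other glycolysis enzymes tested, Pkm2 (pyruvate kinase, the last step) alone passed in NF-like neurons, with a median difference of 0.39 over the list and 0.05 over all genes. Pkm2 was at 1432 ± 205.5 RPM in NF-like, 588 ± 172.4 in NP-like, 919 ± 191.4 in PEP-like and 659 ± 132.1 in TH-like neurons (SD over preparations). It was higher in NF-like neurons by 1.05 ± 0.20 (limma, adjusted p = 0.00119) and lower in NP-like neurons by -0.70 ± 0.20 (limma, adjusted p = 0.042). The NP-like call was lost with median-ratio scaling, at -0.68 (limma, adjusted p = 0.154). Besides that NP-like call, none of the 14 passed in the other neuron classes.

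On the lists for the use of pyruvate few genes passed in NF-like neurons, where 6.78% of all genes tested were called. Of 11 genes of pyruvate entry 1 passed, Pdhb (pyruvate dehydrogenase E1 beta), with 749 ± 354 RPM in NF-like neurons and a difference of 1.57 ± 0.29 (limma, adjusted p = 0.000915). The list's median was 0.81. Of 15 citric acid cycle genes 1 passed, Idh3b (an isocitrate dehydrogenase subunit), at 0.92 ± 0.25 (limma, adjusted p = 0.022), with a list median of 0.72. Both shares are near that of all genes. Of 6 genes of the malate-aspartate and glycerol phosphate shuttles, which carry NADH electrons into mitochondria, 2 passed, Got1 (1.503 ± 0.31) and Mdh1 (1.25 ± 0.33), with a median of 0.75. Each median stood above the 0.05 of all genes. Of 6 glycogen genes Pygb (brain glycogen phosphorylase) passed at 1.59 ± 0.48, of 6 transport genes Slc2a8 (a glucose transporter) at 1.21 ± 0.34, and of 8 regulators Esrra (an orphan nuclear receptor of energy metabolism) at 1.61 ± 0.45. None of 6 pentose phosphate genes passed, and their median was -0.28. No gene of these lists was lower in NF-like neurons. With median-ratio scaling Mdh1 (1.18, limma adjusted p = 0.0594), Pygb (1.52, limma adjusted p = 0.157) and Esrra (1.47, limma adjusted p = 0.0549) no longer passed, and the other genes named here did.

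Among the other neuron classes, Pdhb was lower in PEP-like neurons by -1.29 ± 0.32 (limma, adjusted p = 0.0394), and by -1.11 with median-ratio scaling, which did not pass (limma, adjusted p = 0.113). In TH-like neurons none passed. In session C against the others none passed either.

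The genes whose pattern was most like each member's were found over 22 class-by-preparation means, after each preparation's mean was taken off; these means share libraries, and the correlations are descriptions. For Ldhb they were Nsg1 (r = 0.905), Clu (0.901) and Edil3 (0.889), and for Eno2 Hopx (0.961), Tagln3 (0.954) and Fbxo2 (0.944). For Aldoc they were Nefm (0.854), Cog4 (0.848) and Hspa12a (0.842). Ldha was most like AI413582 (0.947), Smarcb1 (0.944) and Ngfrap1 (0.939). Aldoa was most like Nsf (0.953), Ubxn1 (0.939) and Gnpda2 (0.933), and Gapdh most like BC031181 (0.966), Napa (0.947) and Vdac3 (0.94). Among the members, Aldoa and Gapdh went together (r = 0.86) while Ldha and Ldhb did not (r = -0.4). Of the 22 means, 3 were those of non-neuronal wells. Before median-ratio scaling, Aldoa (log2 difference -1.99), Gapdh (-1.67), Ldha (-1.91) and Eno2 (-2.01) were lower there than in neurons. How much of each correlation rests on those wells was not tested, and correlations over neuron classes alone were not computed.

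Control wells held few reads of the members, though not low RPM. In the 24 of 32 empty or medium wells whose reads could be recovered, mean reads per well were 5.96 for Gapdh, 3.79 for Aldoa, 1.71 for Ldha, 0.583 for Eno2, 0.375 for Aldoc and 0.25 for Ldhb. In the 686 kept wells with recovered reads the medians were 335, 304, 73, 13.5, 0 and 6 reads. As means, Aldoc was at 0.375 reads in control wells and 85.8 in kept wells. Its median was 0 reads in both, and it was above 0 in 2 of 32 control wells and 334 of 694 kept wells. On the RPM scale, where a few reads weigh much in a near-empty well, the control means of all 32 wells were 3989 for Gapdh, 335 for Eno2 and 273 for Ldhb, against 3304, 370 and 330.1 over the kept wells. The medians of control wells were 836.4, 0 and 0 RPM. The 32 control wells include the 4 whose deposited whole numbers have an unknown scale, and their part in these values was not tested.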

How the data were processed

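The deposited table holds RPM for 25333 rows and 864 wells; per the file headers the values are reads per 1000000 without molecular identifiers, and per the submitters' processing notes Bowtie and build mm9 were used (version not given in the sources used here). The 5′-tagged protocol in the labels reads transcript starts, so levels are not divided by length. In 841 columns the steps of the deposited values gave whole reads (99.51% of values within 0.1); 19 others stayed RPM, and 4 control columns of whole numbers were deposited as values whose scale is unknown and named a score. Copies of a gene named with a location suffix were summed, and 1217 repeat rows left out.

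Genes were split at random into 2 sets; the members and all pathway lists were left out of both clusterings (scanpy 1.11.5, Leiden), and each gene was tested with classes from the other set. Classes from the 2 sets matched in 641 wells (92.4%). Resolution 1.5 and the naming by log2 means were chosen after 6 resolutions were viewed and before any contrast was fitted. Class-by-preparation means with 3 or more wells entered limma 3.58.1 (R 4.3.3; trend, robust, preparation as block) as log2(mean RPM + 5), for genes whose mean reached 5 RPM, with Benjamini-Hochberg adjustment over all genes and a threshold of 0.05; a p in the text is adjusted unless named otherwise. The cooling comparison had sex as covariate. edgeR 4.0.16 on recovered reads was an alternative, with other pseudocounts, filters, scalings, thinning and omitted preparations. Named list genes passed the threshold in a class comparison, at most 3 per list by size. The scripts were tested on simulated data. The members and lists were chosen with earlier results of these data known. Wells were not checked for doublets beyond the labels. One list gene that passed in a class comparison is not reported here.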

Additional observations from a re-analysis of the deposited data

Results flagged for a closer look

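Wells that the labels describe as holding more than 1 cell (33 wells) entered no comparison. Their median levels lay above those of the 32 control wells for 5 members: 633.6 RPM against 92.6 for Ldha, 33.9 against 0 for Ldhb, 1964 against 381.9 for Aldoa, 34.1 against 0 for Eno2 and 2487 against 836.4 for Gapdh. Control values rest on a few reads each, and 4 of the 32 control wells hold values of unknown scale. In the 694 kept wells the medians of the same members were higher than in the wells with more than 1 cell. They were 738.3 RPM for Ldha, 80.02 for Ldhb, 2803.9 for Aldoa, 244.6 for Eno2 and 3199.3 for Gapdh.

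Eno1 in TH-like wells of session A males, at 5.31 RPM, stood far from the 4 other preparations of that class, which were listed at 0 to 0.94 RPM. About 1 in 20 groups of this size shows such a gap by chance. Eno1 was above 0 in only 8 of 253 TH-like wells, and 1 well at 209.4 RPM gave 44.7% of the class sum. Median reads per well were lowest in session A males, at 15421, so the value rests on few reads.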

How the results depend on the processing

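Ldhb in NF-like neurons and Eno2 in NP-like neurons passed in 19 of 19 alternatives (log2 2.89 to 3.59 and -3.21 to -2.48). Eno2 in NF-like and Ldhb in NP-like neurons passed in 18 of 19, and Ldhb in TH-like neurons in 16 of 19. The number of members called in NF-like neurons was 4 over plate-by-sex libraries, 1 with sessions B and C only and 5 with neuron classes only in the fit. In NP-like neurons it was 1 without the PEP-like cluster that has Nefh, in PEP-like neurons 1 with neuron classes only, and in TH-like neurons 0 with sessions B and C only, 3 with neuron classes only and 0 without that PEP-like cluster. In non-neuronal wells the number of members called was 1 with median-ratio scaling, where 1838 genes were higher and 1669 lower of 10419. The Gapdh difference there turned from -1.67 to 0.13. Leaving out each preparation gave 2 to 3 members in NF-like, 2 to 2 in NP-like, 0 to 0 in PEP-like, 1 to 2 in TH-like and 4 to 5 in non-neuronal comparisons and 0 to 2 for cooling. Over plate-by-sex libraries, NF-like, NP-like and TH-like differences in Ldhb to Ldha ratio were 3.99, -1.91 and -1.85. In Aldoc to Aldoa they were 1.66 (NF-like) and -1.62 (TH-like), and in Eno2 to Eno1 1.53 (NF-like) and -2.75 (NP-like). All had an adjusted exact permutation p at or under 0.0419. These libraries share preparations and are not independent replicates, and over preparations no ratio could pass. The Eno2 to Eno1 differences follow Eno2 over the pseudocount and are not read as an isoenzyme balance. Without the PEP-like cluster that has Nefh, the PEP-like differences in Ldhb to Ldha and Aldoc to Aldoa were -1.44 and -1.06, and the TH-like Ldhb to Ldha difference -1.69. Median-ratio scaling moved the non-neuronal Eno2 to Eno1 difference to -0.23. The cause of these changes was not tested. The settings with neuron classes only and without that PEP-like cluster were chosen after seeing the data. Depth was lowest in session A, with median reads of 15421 and 15597. No paired analysis was possible because replicate numbers only name wells, where this concerns pairing by those numbers; classes were compared within preparations throughout, as a block in limma and by differences in the ratio tests.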

Other observations

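Of 8 pathway regulators tested, 1 was higher and 2 were lower in non-neuronal wells than in neurons, where 49.3% of all genes were called. The regulators were thus not called more often than genes at large, and their median was -0.28 against -1.04. With median-ratio scaling the counts were the same, where 33.7% of all genes were called. Epas1, which encodes the hypoxia-inducible factor HIF-2 alpha and is known from endothelial and mural cells, stood at 207.3 ± 94.9 RPM in non-neuronal wells and at 7.53 to 16.3 RPM in the neuron classes, a difference of 3.39 ± 0.52 (limma, adjusted p = 1.69e-05). Pfkfb3, which makes an activator of phosphofructokinase, was at 0.835 ± 0.948 RPM there and at 14.6 to 66.6 RPM in the neuron classes (-2.70 ± 0.53; limma, adjusted p = 0.000279). With median-ratio scaling both still passed, at 5.07 (limma, adjusted p = 3.51e-07) and -2.01 (limma, adjusted p = 0.00632).

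The list counts in non-neuronal wells depended on the scaling. Without it, where 49.3% of all genes were called (4181 lower, 955 higher), 13 of 15 citric acid cycle genes were lower and 0 higher, with a median of -1.60 against -1.04 over all genes. Of 11 genes of pyruvate entry 9 were lower and 0 higher, with a median of -1.98. Among the other glycolysis enzymes 6 of 14 were lower and 1 (Hk3, a hexokinase) was higher, with a median of -1.08. With median-ratio scaling, where 33.7% of all genes were called and their median was -0.20, 2 citric acid cycle genes were lower and 2 higher, with a median of -0.08. For pyruvate entry 3 were lower and 0 higher, with a median of -0.96, and for the other glycolysis enzymes 1 was lower and 3 were higher, with a median of -0.14.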
